A study of Mus musculus with 8 samples.

Results

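The liver response to loss of SHP was compared between mice with and without leptin, gene by gene, as the interaction of both gene losses. For each gene the interaction is the difference between OB-/-/SHP-/- and OB-/- livers minus the difference between SHP-/- and wild-type livers, so it is 0 when losing SHP moves a gene equally far in both leptin backgrounds. It was computed over all 8 Affymetrix arrays of the series for all 22626 probe sets that are not controls, of 22690 in the table, and tested for 12393 genes with 1 probe set each. The groups were wild-type mice, SHP-/- mice (SHP knockout), OB-/- mice (leptin knockout) and OB-/-/SHP-/- mice (both genes knocked out), with 2 arrays each. All were labelled C57BL and were fed standard chow, the tissue was liver, and age, sex and the alleles themselves are not given in the labels. The labels do not tell whether both arrays of a genotype represent different mice, so errors and p-values measure only how far these samples scatter, and that scatter may be technical.

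SHP (small heterodimer partner, gene Nr0b2) lacks the DNA-binding domain that most nuclear receptors have. It binds other nuclear receptors, such as LRH-1 and HNF4A, and represses their target genes, among them those of bile acid synthesis. Leptin is secreted by fat cells and tells the brain to limit food intake. Without it mice overeat, become obese and store fat in the liver. The level that the double knockout would have if the log2 changes of the single knockouts simply added up, OB-/- plus SHP-/- minus wild-type, is called the additive expectation here, and the interaction is the observed double knockout level minus it.

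Levels are log2 expression values as deposited, on which a difference of 1 is a doubling. Array medians lay between 5.45 and 5.56. The median standard error (SE) of an interaction was 0.22, and its unadjusted 95% interval reached 0.48 to either side at the median. After adjustment over all genes no interaction smaller than 0.96 in size was called. Genes and lists without a call may therefore hold interactions well above 0.48. The hepatocyte markers stood high and near equal in sum, with a summed level of 15.87 to 16.05 over the 8 arrays. Of the 7 measured members 0 were called. The sum weighs its strongest members most. From wild-type to OB-/- the median change of the members was -0.26, with Tat at -0.65 and Cps1 at -0.51. The arrays of Nr0b2 itself were at 8.74 and 8.71 (wild-type), 7.78 and 8.31 (SHP-/-), 8.01 and 8.01 (OB-/-) and 7.11 and 6.66 (OB-/-/SHP-/-), with an interaction of -0.44 ± 0.27 (SE, limma adjusted p = 0.748). Whether its probe set lies in the deleted part is not known here, so it does not check the labels. Lep lay at genotype means of 3.29 to 3.50 everywhere (interaction 0.00 ± 0.21). Other signs differed between arrays. Xist read 7.41 in OB-/- replicate 1 and 4.31 to 4.70 elsewhere, while the Y-linked Eif2s3y lay between 6.57 and 7.50 on every array. Kdm5d, also Y-linked, read 5.23 to 5.46 on the wild-type and SHP-/- arrays and 4.21 to 4.45 on those of OB-/- and the double knockout. Fos read 11.95 in SHP-/- replicate 1 and 5.17 to 6.98 elsewhere. The excess of the 3' over the 5' control probe set of Gapdh, which grows as RNA degrades, averaged 0.90 for wild-type, 0.27 for SHP-/-, -0.04 for OB-/- and 0.07 for the double knockout, and its own interaction was 0.73 (0.61 for Actb). The part of these differences in the results was not tested. Counts without OB-/- replicate 1 and SHP-/- replicate 1, the arrays of highest Xist and Fos, are given beside the main ones. These counts do not remove the Kdm5d difference or the 3' excess. The latter was highest on both wild-type arrays (Gapdh 0.79 and 1.00, Actb 1.89 and 1.87) and cannot be told apart from genotype.

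Loss of SHP acted differently on 68 of the 12393 genes depending on leptin, which is 0.549% of genes tested (limma, adjusted p below 0.05). Of these 44 had a positive interaction (0.355%), meaning that the double knockout stood above the additive expectation, and 24 a negative one (0.194%). At an unadjusted p below 0.05 there were 1026 genes (8.28%). The positive genes were led by the interferon-inducible GTPases, which defend cells against intracellular microbes, and the negative ones by Cidea, which coats lipid droplets. The smallest called interaction was 0.96 in size, at Hnrnph1. Tested against a minimum of 2-fold, 22 of the 68 were called. Without OB-/- replicate 1 and SHP-/- replicate 1 the count was 39, with 33 of the 68 among them. Without either wild-type array it was 38 and 32, without either OB-/- array 39 each time, and without SHP-/- replicate 2 it was 113. With any single array left out, 30 of the 68 kept their call, 19 positive and 11 negative.

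**Figure D1:**
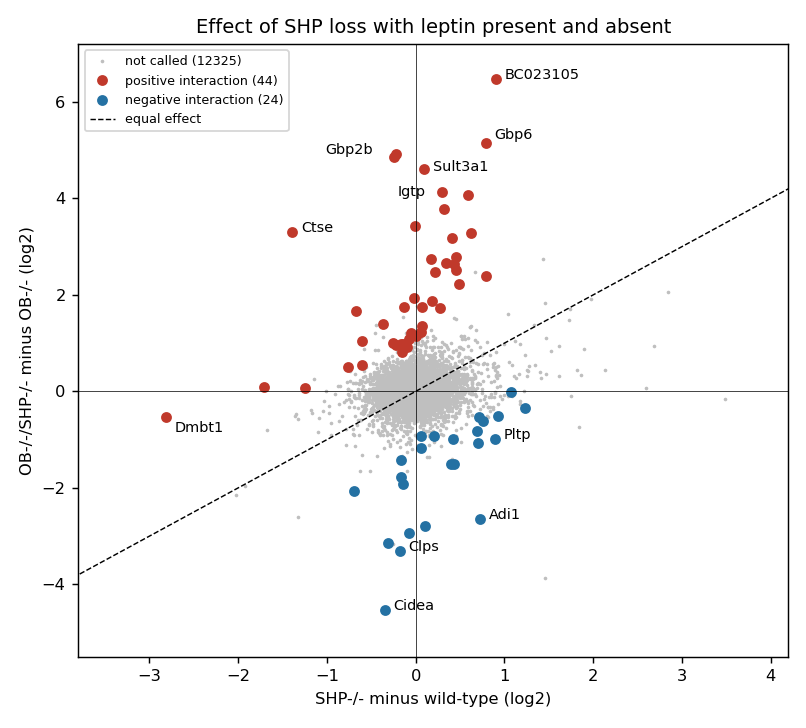
Effect of SHP loss on each gene (points) with leptin present (horizontal axis, SHP-/- minus wild-type, log2) and without leptin (vertical axis, OB-/-/SHP-/- minus OB-/-, log2). The dashed line marks an equal effect; the 44 genes of positive interaction lie above it, and the 24 of negative interaction below it.

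The called genes fell mostly into a pair of shapes. Among the 44 positive genes, 32 had both OB-/-/SHP-/- arrays above all 6 other arrays, and among all genes tested 7.31% did. In 30 of the 44 the double knockout was also the genotype farthest from the mean of the others. Among the 24 negative genes, 21 had both OB-/- arrays above the other 6, against 7.90% of all genes tested, and OB-/- was the farthest genotype in 16. In 9 positive genes OB-/- was the farthest genotype on the low side. Both OB-/- arrays lay below the other 6 in 26 of the 44, against 8.17% of all genes tested. Both double knockout arrays lay below the other 6 in 4 of the 24 negative genes, against 5.93%. The choice of called genes favours such shapes, so these counts describe them and test nothing. Each of the 68 kept the sign of its interaction in the least favourable choice of 1 array per genotype, as did 20.5% of all genes tested.

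**Figure D2:**
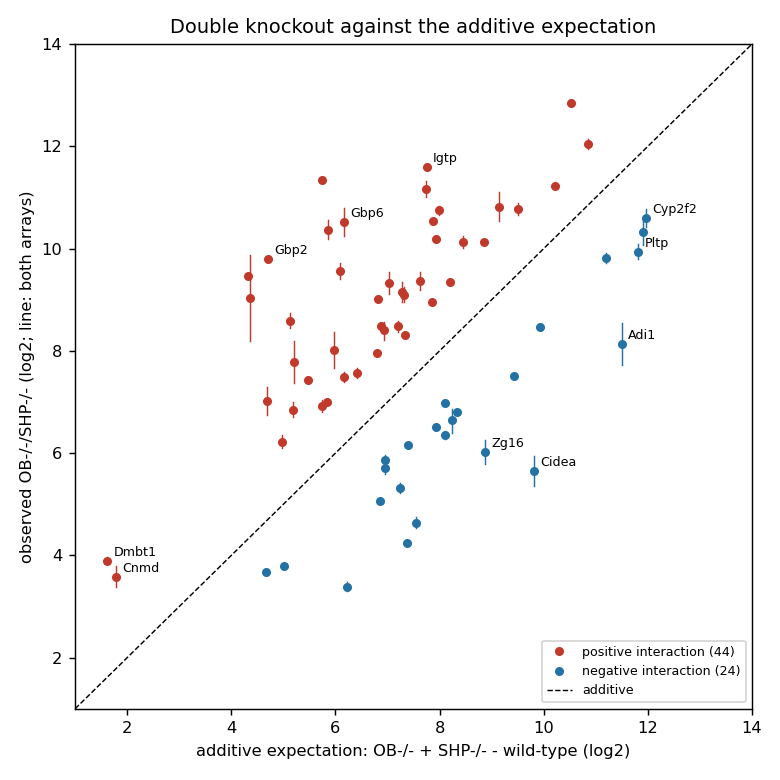
Observed mean of the OB-/-/SHP-/- arrays (vertical axis, log2; the line through a point joins both arrays) against the additive expectation from the other genotypes (horizontal axis, log2) for the 68 called genes. Gbp2 lies at 9.80 against an expectation of 4.70, and Cidea at 5.65 against 9.82.

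The interferon-inducible GTPases are made in cells exposed to interferon and act at the membranes of vacuoles that hold microbes. Of 18 listed, 11 were measured, and 10 of these were called, all positive, with a list median of 3.47 against 0.04 over all genes. The guanylate-binding protein Gbp2 was at 4.60 and 4.63 on the wild-type arrays, 4.65 and 4.10 on those of SHP-/-, 4.86 and 5.02 on those of OB-/- and 9.80 on both double knockout arrays. Only the double knockout was high, and its arrays did not overlap with the others. The interaction of Gbp2 was 5.10 ± 0.25 (SE, limma adjusted p = 3.8e-06), and its other probe set gave 4.85. The wild-type and SHP-/- readings lie below 4.82, the 40th percentile of all values, so no exact fold is given; with values under that percentile set to it the interaction was 4.86. Gbp2b (5.15 ± 0.43), Gbp6 (4.35 ± 0.33), Gbp7 (3.48 ± 0.36) and Gbp3 (3.47 ± 0.24) had the same shape, with double knockout means of 9.47, 10.51, 9.56 and 8.59 and no other genotype mean above 6.77.

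The other family is that of the immunity-related GTPases. Igtp, which guards vacuole membranes, was at 7.53 and 7.83 (wild-type), 8.03 and 7.93 (SHP-/-), 7.54 and 7.37 (OB-/-) and 11.55 and 11.63 (double knockout). Its interaction was 3.84 ± 0.21 (limma adjusted p = 6.0e-06), a 14.3-fold excess. Ifi47 (3.44 ± 0.27), Irgm2 (2.77 ± 0.22), the regulator Irgm1 (2.66 ± 0.23) and Iigp1 (2.32 ± 0.18) followed. Iigp1 was at 11.15 and 11.11 on the wild-type arrays, 10.18 and 10.19 on those of OB-/- and 12.81 and 12.88 on those of the double knockout. Gbp8, at 2.90 to 4.17 by genotype mean, was the measured member that was not called (1.10 ± 0.34, adjusted p = 0.293). Members of these families are alike in sequence, and Gbp2 is read by a probe set of the x_at type, which can match related transcripts, so signal shared between members cannot be told apart. All 10 called GTPases kept their call with any single array left out. The uncharacterised BC023105, outside the rule for naming because of its clone name, had the largest interaction of all (5.59 ± 0.47, adjusted p = 1.1e-04), at 11.28 and 11.40 in the double knockout against 4.83 to 8.15 elsewhere.

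**Figure D3:**
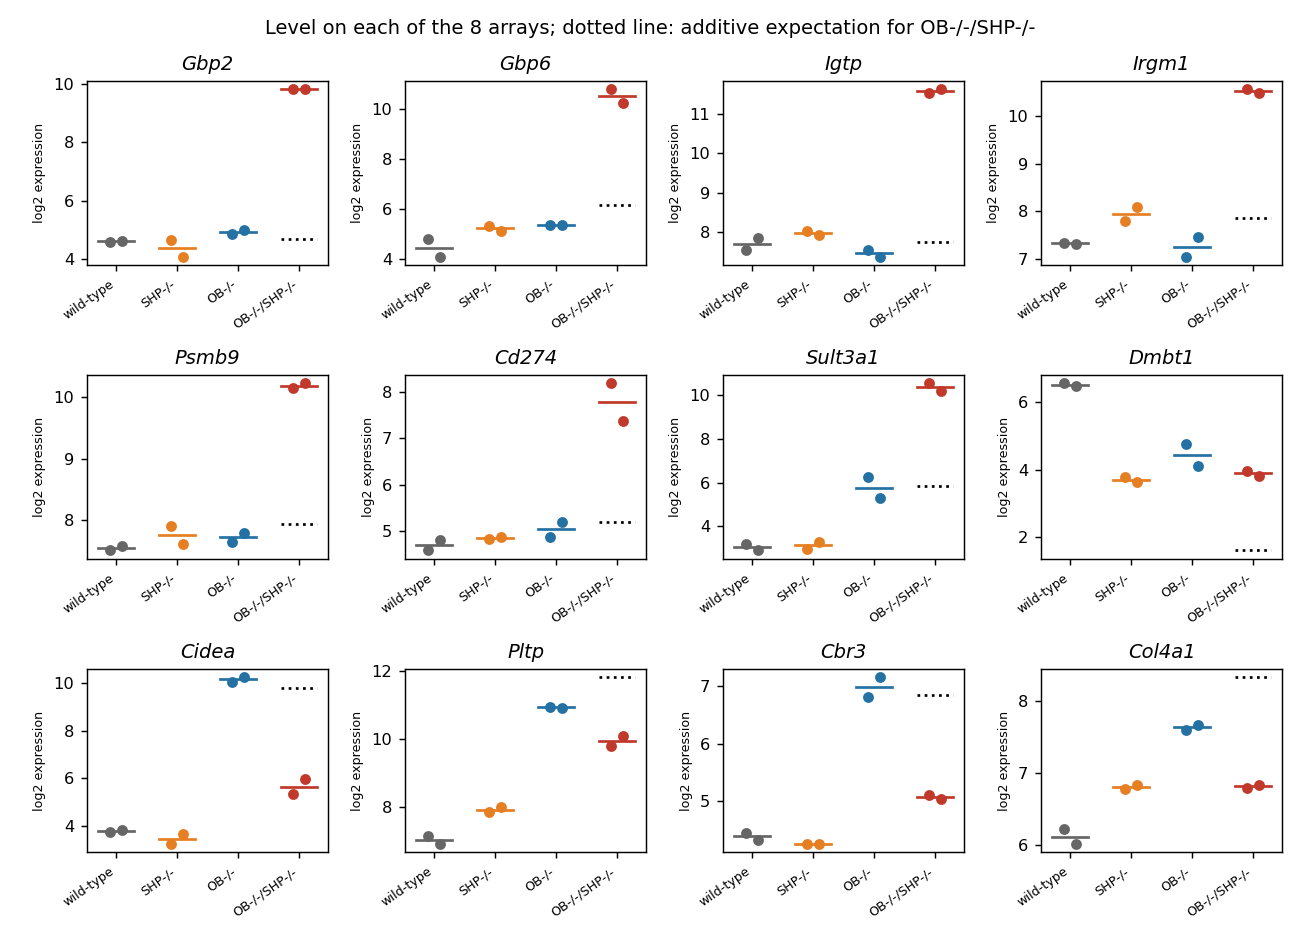
Log2 expression (vertical axes) on each of the 8 arrays (points, with the genotype mean as a bar) for 12 genes, and the additive expectation for the double knockout (dotted). In the upper row and in Psmb9, Cd274, Sult3a1 and Dmbt1 the double knockout lies above the dotted line; in Cidea, Pltp, Cbr3 and Col4a1 it lies below.

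Promoters of the positive genes are shown because 32 of the 44 were highest on both double knockout arrays and their regulatory letters can be read. The shares given below cover all positive genes with a promoter, also those of other shapes. Interferon acts through transcription factors that bind either of a pair of DNA elements, the interferon-stimulated response element (ISRE) and the gamma-activated site (GAS). The ISRE core, which is GAAA, any 2 bases and GAAA again, and the GAS motif TTCNNNGAA were searched on both strands in the 250 bases before each RefSeq transcript start (GRCm38.p6), where N is any base. Each stretch below is 60 bases, 5′ to 3′ on the gene's strand, and capitals mark the match, which for an ISRE can read as its reverse complement.
Gbp2: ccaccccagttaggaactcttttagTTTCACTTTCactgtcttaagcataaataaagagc
Gbp2b: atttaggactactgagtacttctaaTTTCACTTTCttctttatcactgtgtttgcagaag
Gbp3: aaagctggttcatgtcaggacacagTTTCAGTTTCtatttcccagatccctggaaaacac
Gbp7: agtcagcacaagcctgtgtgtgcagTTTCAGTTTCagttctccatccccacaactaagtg
Igtp: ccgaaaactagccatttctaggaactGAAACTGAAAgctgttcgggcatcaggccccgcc
Irgm1: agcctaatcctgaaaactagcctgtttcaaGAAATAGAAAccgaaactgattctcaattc
Ifit1: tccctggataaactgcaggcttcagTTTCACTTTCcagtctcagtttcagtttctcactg
Irf1: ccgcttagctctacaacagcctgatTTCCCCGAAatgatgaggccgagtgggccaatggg
The first 7 are ISRE core matches and the last is a GAS match.

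The Gbp2 stretch lies at chr3:142620579-142620638 on the plus strand, where the match begins 59 bases before the start, and the Gbp3 and Gbp7 matches begin 45 and 53 bases before theirs (stretches chr3:142559974-142560033 and chr3:142530258-142530317, plus strand). That of Gbp2b begins 137 bases before its start (chr3:142594685-142594744, plus strand). The Igtp match begins 34 bases upstream (chr11:58199496-58199555, plus strand) and the Irgm1 match 30 bases upstream (chr11:48871421-48871480, minus strand). Ifit1 and Irf1 have theirs at 104 and 90 bases (chr19:34640760-34640819 and chr11:53769899-53769958, both on the plus strand). Of the 44 positive genes, 32 had a promoter in the table, and 11 of them (34.4%) held an ISRE core, against 3.35% of the 9887 tested genes with a promoter and 2.98% of all 32851 windows. The 11 included 7 of the 8 called GTPases with a window. A GAS motif was in 8 of the 32 (25%), against 7.31% of tested genes and 7.02% of windows, and in Gbp7, Igtp, Irgm2 and Sult3a1 both motifs occurred without overlap. Members share sequence: the 60-base GAS stretches of Igtp and Irgm2 are identical at 58 bases. Of the 24 negative genes 18 had a promoter, with an ISRE core in 1 (5.56%) and a GAS motif in 3 (16.7%). The PPAR response element and the LRH-1 motif TCAAGGTCA matched 0 of the 32 and 0 of the 18 promoters, and 0.0405% and 0.334% of those of tested genes. A match is a run of letters, not a shown binding site, and a missing match says nothing of the factor.

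Other interferon-induced genes were above the additive expectation in part. Of 29 measured members of that list, 6 were called, all positive, and the list median was 0.23. Cd274, which encodes the T cell checkpoint ligand PD-L1, read 8.19 and 7.38 in the double knockout and 4.59 to 5.20 on the other arrays, an interaction of 2.58 ± 0.32 (adjusted p = 0.0025). Irf1, a transcription factor induced by interferon gamma, was low in OB-/- (7.13 and 7.69), intermediate in wild-type and SHP-/- (7.84 to 8.16) and high in the double knockout (9.34 and 8.95), an interaction of 1.87 ± 0.28 (adjusted p = 0.0118). Ifit1, which binds viral RNA, had 2.05 ± 0.31, the ISG15-removing protease Usp18 1.61 ± 0.23, Ifit3 1.46 ± 0.23 and the myeloid transcription factor Irf8 1.16 ± 0.19. Zbp1, a sensor of nucleic acids, missed the threshold at 1.80 ± 0.36 (adjusted p = 0.0609). The chemokine Cxcl10 (0.06 ± 0.23), Mx1 (0.15 ± 0.20) and Oas2 (-0.01 ± 0.25), known interferon targets, were not called, and Ifng itself read 2.94 to 3.27 on all arrays, near the low end of the table. Without OB-/- replicate 1 and SHP-/- replicate 1, Ifit1 (adjusted p = 0.0696), Irf1 (0.0663), Usp18 (0.0515), Ifit3 (0.091) and Irf8 (0.179) were no longer called, and each of these was also lost without either wild-type array.

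Further positive genes lay outside the list. Rtp4, a chaperone of receptors with antiviral action, read 9.55 and 9.12 in the double knockout and 6.49 to 7.75 elsewhere (2.32 ± 0.22, adjusted p = 3.1e-04). Parp14 and Parp9, ADP-ribosyltransferases that are adjacent in the genome, had 1.95 ± 0.18 and 1.28 ± 0.21, with Parp9 highest in the double knockout and Parp14 set apart mainly by low OB-/- levels. Chosen after their values were seen, Trafd1 (1.11), Rnf19b (1.27), Snx10 (1.14), Inpp1 (1.25) and the clone-named AW112010 (1.03) were also highest in the double knockout. Each of these lost its call without either wild-type array, and without some other single arrays. Of the 68 called genes, 20 sat in 8 runs of neighbours with at most 2 measured genes between them. They were Gbp7, Gbp3, Gbp2b and Gbp2 on chromosome 3, Irgm1 with Ifi47 and Igtp with Irgm2 on chromosome 11, Psmb9, Tap1 and Psmb8 on chromosome 17, Ifit3 with Ifit1 on chromosome 19, Parp14 with Parp9 on chromosome 16, Iigp1 with BC023105, and Irs2, Col4a1 and Col4a2 on chromosome 8.

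The immunoproteasome, which cuts proteins into peptides for display, and the peptide loading machinery were above expectation in 5 of 12 measured members, with a list median of 0.90. The catalytic subunit Psmb9 read 10.15 and 10.23 in the double knockout and 7.51 to 7.90 on the other arrays (2.25 ± 0.20, adjusted p = 1.8e-04). The peptide transporter Tap1 read 9.01 and 9.02 there and 6.17 to 7.35 elsewhere (2.20 ± 0.22, adjusted p = 4.0e-04). Psmb8 (1.73 ± 0.23), Psmb10 (1.68 ± 0.19) and the loading factor Tapbpl (1.15 ± 0.21) were called as well. The display molecules themselves were not: H2-K1 had -0.12 ± 0.18, H2-D1 -0.27 ± 0.20 and B2m -0.05 ± 0.19, all at high level by genotype mean (11.40 to 13.18). Nor was any of the 7 measured MHC class II genes (median 0.36), of which H2-Ab1 had 0.51 ± 0.41. Psmb8 was lost without wild-type replicate 2 (adjusted p = 0.0556). Psmb8 (0.0929) and Tapbpl (0.363) were lost without OB-/- replicate 1 and SHP-/- replicate 1.

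Markers of immune cells are given beside these genes, since in whole liver fewer cells of a type and less RNA per cell cannot be told apart. Of the 14 measured T and NK cell markers 0 were called (median 0.13), and their summed level lay between 8.47 and 8.79 on all arrays. The defining Cd3e read 6.01 to 6.62 and Ncr1 3.40 to 3.55. Ncr1, Klrk1 (3.34 to 3.97 by genotype mean) and Gzmb (4.08 to 4.50) lay below 4.82, the 40th percentile of all values. The sum is therefore in part background, and a flat sum does not show that the number of these cells was equal. Of 18 Kupffer cell and macrophage markers 0 were called as well, 6 having an unadjusted p below 0.05, all negative (median -0.62). The summed level of the macrophage list was 10.73 to 10.75 in wild-type and 11.46 to 11.95 in SHP-/-. It was 12.16 to 12.17 in OB-/- and 12.27 to 12.69 in the double knockout, without overlap between these. The sum was thus lowest in wild-type and highest in the double knockout. From OB-/- to the double knockout the median change of the members was 0.01, while Mpeg1 rose by 1.70 and Vsig4 fell by 0.41. The sum weighs its strongest members most, so its rise was not that of a typical member. The part of the list in the results was not tested. Vsig4, a receptor of resident macrophages, had -1.25 ± 0.29 (adjusted p = 0.124), and the pore-forming Mpeg1 -0.04 ± 0.25. Without SHP-/- replicate 1 the macrophage median was -0.34.

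Some positive genes are known for other roles. Sult3a1, a sulfotransferase of female-biased expression, was at 3.20 and 2.91 for wild-type, 2.98 and 3.31 for SHP-/-, 6.24 and 5.29 for OB-/- and 10.55 and 10.18 for the double knockout. It was thus near the floor in both leptin-intact genotypes, higher without leptin, and higher again without both, with an interaction of 4.51 ± 0.38 (adjusted p = 1.1e-04). Since the leptin-intact readings lie near background, no exact fold is given; with the floor at 4.82 the interaction was 4.61 and was not called (adjusted p = 0.104). None of the other 12 measured members of the sulfotransferase list was called, and Sult2a2, at 11.43 in OB-/- and 11.35 in the double knockout, had 0.16 ± 0.35. The protease Ctse read 9.03 and 8.83 in wild-type, 5.45 and 6.03 in OB-/- and 8.20 and 9.88 in the double knockout (4.69 ± 0.63, adjusted p = 0.0046). Its other probe set gave -2.97 ± 0.92, and the call was lost without either wild-type array, so its direction is uncertain.

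In 9 positive genes OB-/- was, on the low side, the genotype farthest from the mean of the others. Parp14 and Ctse above belong to it. Gdpd3, a lysophospholipase D, was at 8.40 and 9.11 (wild-type), 8.47 and 7.70 (SHP-/-), 5.23 and 5.48 (OB-/-) and 6.74 and 7.30 (double knockout) (2.33 ± 0.41, adjusted p = 0.0282). Irs2, the adaptor that carries the insulin signal in liver, was 7.60 and 7.58 in wild-type, 5.80 and 5.79 in OB-/- and 6.99 and 6.70 in the double knockout (1.66 ± 0.28, adjusted p = 0.0202). The transaminase Got1 was 12.40, 12.18, 11.07 and 12.04 by genotype mean in the order wild-type, SHP-/-, OB-/- and double knockout (1.19 ± 0.20, adjusted p = 0.0212). Got1 was the called member among 22 genes of amino acid catabolism and the urea cycle, of which 19 were positive (median 0.25). The noncoding RNA Malat1 (1.78 ± 0.27), named after its values were seen, the heparan sulfate proteoglycan Sdc4 (1.68 ± 0.28), Dedd2 (1.17) and the splicing factor Hnrnph1 (0.96) completed the 9. All 4 further Malat1 probe sets were positive, between 0.66 and 1.70. Irs2 lost its call when either wild-type array, either OB-/- array or double knockout replicate 1 was left out, and Got1 when any 1 of 6 arrays was.

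In 4 positive genes wild-type, on the high side, was the genotype farthest from the mean of the others. Dmbt1, a secreted scavenger receptor protein, was at 6.56 and 6.47 (wild-type), 3.78 and 3.63 (SHP-/-), 4.77 and 4.10 (OB-/-) and 3.96 and 3.83 (double knockout). It fell with either loss alone, and the double knockout lay near the SHP-/- level (2.27 ± 0.27, adjusted p = 0.0020). Cnmd, named chondromodulin, was at similar positions (6.21, 4.50, 3.50 and 3.58 by genotype mean, 1.80 ± 0.32). Their additive expectations of 1.62 and 1.79 lie below 2.20, the lowest value in the table, so an additive fall could not have been measured for either. Cyp2c37 (1.27 ± 0.24) and Klf10 (1.15 ± 0.19) were the other 2.

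The negative genes were led by Cidea, which promotes the growth of lipid droplets. Its arrays were at 3.73 and 3.82 (wild-type), 3.22 and 3.63 (SHP-/-), 10.07 and 10.27 (OB-/-) and 5.35 and 5.95 (double knockout). It was high in OB-/-, with the double knockout 4.17 ± 0.29 below an additive expectation of 9.82 (interaction -4.17, adjusted p = 4.6e-05). Its leptin-intact readings lie below 4.82, and with that floor the interaction was -4.52. Of the 17 measured lipid droplet proteins Cidea alone was called, and the list median was -0.14. Its relative Cidec had -1.15 ± 0.48 (adjusted p = 0.551), Plin4 -0.56 ± 0.24 and Plin2, the most general droplet coat, 0.10 ± 0.28. Cidea was called with any single array left out.

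Other negative genes shared this shape. Pltp, which transfers phospholipids between lipoproteins, was at 7.14 and 6.90 (wild-type), 7.83 and 7.98 (SHP-/-), 10.94 and 10.90 (OB-/-) and 9.79 and 10.08 (double knockout) (-1.87 ± 0.21, adjusted p = 0.0013), and its other probe set gave -2.54. It was the called gene among 21 of lipoprotein assembly and remodelling (median 0.03). The secreted protease inhibitor Wfdc2 was 9.01 and 9.03 in OB-/- and 7.44 and 7.57 in the double knockout, above 6.04 to 6.63 elsewhere (-1.91 ± 0.20, adjusted p = 5.9e-04). Cbr3, a carbonyl reductase, was 6.82 and 7.16 in OB-/-, 5.11 and 5.03 in the double knockout and 4.25 to 4.44 elsewhere (-1.78 ± 0.21, adjusted p = 0.0015). The peptidase Mme (-1.93 ± 0.29) and the protease inhibitor Serpinb1a (-1.76 ± 0.31) behaved alike. Mme was lost without either wild-type array, and Serpinb1a when any 1 of 6 arrays was left out. Sucnr1 (-1.26), Bex4 (-1.23) and Dglucy (-1.13), chosen after their values were seen, were also highest in OB-/-. Sntb1 (-1.08), chosen likewise, had another shape and was highest in SHP-/-. Its genotype means were 5.41 (wild-type), 6.48 (SHP-/-), 5.88 (OB-/-) and 5.87 (double knockout). These genes complete the negative ones together with those below.

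The basement membrane collagens Col4a1 and Col4a2, which are neighbours and form 1 protein, were both called. Col4a1 was at 6.22 and 6.01 (wild-type), 6.78 and 6.83 (SHP-/-), 7.60 and 7.67 (OB-/-) and 6.79 and 6.83 (double knockout) (-1.51 ± 0.19, adjusted p = 0.0026). Leptin loss raised it (adjusted p = 3.1e-05), SHP loss alone did not pass (adjusted p = 0.0724), and the double knockout stood at the SHP-/- level. Col4a2 had -1.24 ± 0.21. Among the 15 measured markers of stellate cells and fibrosis Col4a1 was the called one, with Col3a1 at -1.14 ± 0.29 (adjusted p = 0.185) and the activation marker Acta2 at 0.09 ± 0.28 (median -0.16). The annexin Anxa5 (-1.38 ± 0.26) and the membrane protein Tmem98 (-1.45 ± 0.19) were also lowest in wild-type and highest in OB-/-. The carboxylesterase Ces1g differed from Col4a1 in that SHP loss alone raised it (adjusted p = 0.0105) and the double knockout stood near OB-/-, with genotype means of 7.61, 8.84, 10.67 and 10.32 (-1.59 ± 0.24, adjusted p = 0.0118).

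Of 31 measured cytochromes P450 of families 1 to 3, 3 were called. Cyp2b10, a drug-metabolising enzyme induced through the receptor CAR, was 8.33 and 8.50 in OB-/- and 6.40 and 6.87 in the double knockout, above 5.24 to 5.67 elsewhere (-1.60 ± 0.26, adjusted p = 0.0187). Its other probe sets gave -2.20 and -2.32. Cyp2f2, an enzyme of periportal hepatocytes, was lowest in the double knockout, at 10.78 and 10.43, and 11.88 to 12.72 on the other arrays (-1.36 ± 0.22, adjusted p = 0.0187). The double knockout was the farthest genotype on the low side for Cyp2f2, Adi1 and Plekhb2 (-1.40 ± 0.23). Adi1, an enzyme of methionine salvage, read 9.74 and 8.91, 9.76 and 10.32, 10.86 and 10.70, and 8.55 and 7.73 in the same order of genotypes (-3.36 ± 0.43, adjusted p = 0.0031). Its further probe sets gave -5.27 ± 0.46 and -0.32 ± 0.18, so the size depends on the probe set. The largest interaction of any gene that was not called was that of Cyp2b9 (-5.33 ± 1.98, adjusted p = 0.456), which read 4.34 and 10.74 on the double knockout arrays, a gap between replicates larger than the effect.

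A group of negative genes belongs to the exocrine pancreas. Colipase Clps read 7.95 and 7.15 in OB-/- and 2.83 to 4.28 elsewhere (-3.13 ± 0.32, adjusted p = 4.7e-04), and the trypsinogen Prss2 7.87 and 7.00 against 3.65 to 4.75 (-2.90 ± 0.33). Zg16 (-2.86 ± 0.22), Reg3b (-2.84 ± 0.23) and the lipase relative Pnliprp1 (-0.99 ± 0.19) were called as well, 5 of 16 measured acinar markers, with a median of -0.57. Pnliprp1 lay at genotype means of 3.57 to 4.60, all below 4.82, and lost its call whichever of the 8 arrays was left out. The summed level of the list was 10.43 to 10.75 in OB-/- and at most 9.20 on the other arrays, so both OB-/- samples were high. Other probe sets gave smaller values of the same sign for Clps (-0.24) and Prss2 (-0.10 to -1.28), both signs for Zg16 (0.22 and -0.79) and the opposite sign for Reg3b (0.22). The part of pancreas tissue in these values was not tested.

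**Figure D4:**
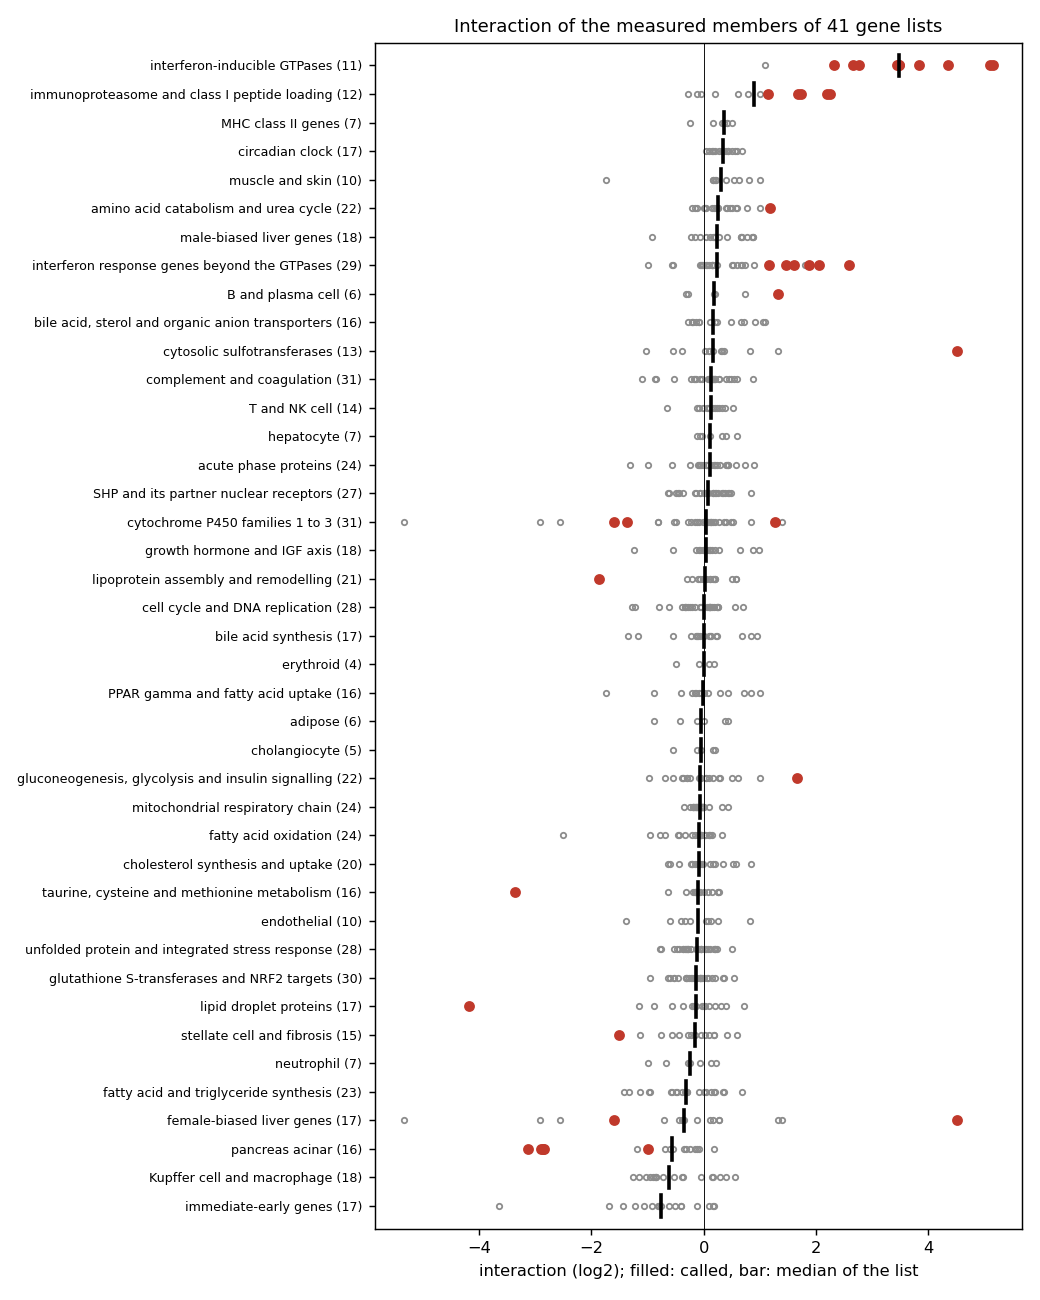
Interaction (horizontal axis, log2) of each measured member (points; filled, called) of 41 gene lists (rows, number measured in brackets), with the list median as a bar. The GTPases, with a median of 3.47, stand apart to the right, and most other lists centre near 0.

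The pathways that SHP is best known for had no called member. None of 17 measured bile acid synthesis genes passed (median 0.01). Cyp7a1, the rate-limiting enzyme, had -1.35 ± 0.43 (adjusted p = 0.32), named after its value was seen, and the brain-type sterol hydroxylase Cyp46a1 -1.16 ± 0.23 (adjusted p = 0.0613). Of 27 measured members of the list of SHP and its partner receptors 0 were called (median 0.08), with Pparg at 0.84 ± 0.25. Bile acid and organic anion transporters had 0 of 16 (median 0.16). The nearest were the anion transporter Slc22a7 (1.10 ± 0.22, adjusted p = 0.0623) and the sterol exporter Abcg5 (1.05 ± 0.24). Cholesterol synthesis had 0 of 20 (median -0.08).

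The lists of fat metabolism held no called gene beyond Cidea and Pltp. The called lysophospholipase D Gdpd3 and carboxylesterase Ces1g, described above, were on none of these lists. In fatty acid and triglyceride synthesis 0 of 23 measured genes passed, 8 had an unadjusted p below 0.05, and all 8 were negative (median -0.32). ATP citrate lyase Acly was nearest (-0.96 ± 0.19, adjusted p = 0.0551), with the desaturase Scd1 at -1.13 ± 0.26 and, named after their values were seen, Elovl6 at -1.41 ± 0.35 and Fasn at -1.32 ± 0.39. With a trend in eBayes Acly and Scd1 were called, both at an adjusted p of 0.0226. Mogat1, which makes diacylglycerol, had -1.73 ± 0.35 (adjusted p = 0.064) in a list of PPAR gamma and fatty acid uptake genes with 0 of 16 called. Fatty acid oxidation had 0 of 24 called, and the peroxisomal transporter Abcd2 there had -2.51 ± 0.61 with SHP-/- arrays at 7.61 and 5.75.

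Some lists leaned 1 way without a called member. All 17 measured circadian clock genes had a positive interaction (median 0.35), where 6898 of the 12393 genes did, and 2 had an unadjusted p below 0.05. The largest was Per2 at 0.68 ± 0.19 (adjusted p = 0.234). The time of day of sampling is not given in the labels. Of 17 immediate-early genes 14 were negative (median -0.75), and without SHP-/- replicate 1 the median was 0.04. The respiratory chain had 21 of 24 members negative, but with a median of -0.07 and 0 called. Of 30 glutathione S-transferases and NRF2 targets, 23 were negative and 0 called (median -0.13). The lists of the stress response (28 measured), acute phase proteins (24), complement and coagulation (31), the growth hormone axis (18) and the cell cycle (28) had 0 called members and medians between -0.12 and 0.13. Of 18 male-biased liver genes 0 were called and 14 were positive (median 0.24). Of the 17 female-biased genes 1 was called each way (median -0.35). The markers of neutrophils (7 measured), endothelium (10), bile duct cells (5), fat cells (6), red cells (4) and muscle and skin (10) had 0 called members.

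Genes for which SHP loss had an effect in both backgrounds give the reverse view. SHP-/- against wild-type had 40 called genes (0.323%) and OB-/-/SHP-/- against OB-/- had 265 (2.14%), in comparisons that share no array. In both, 12 genes were called, 11 with the same sign. The interaction was called for 1 of these 12, Pltp, the gene of opposite signs (0.89 and -0.99). Since the interaction is the difference of these comparisons, picking genes called in both with the same sign favours small interactions. The counts thus describe the 12 genes and test nothing. Csad, an enzyme of taurine synthesis, was at 9.62 and 9.28 (wild-type), 11.46 and 11.39 (SHP-/-), 9.10 and 9.16 (OB-/-) and 11.30 and 10.80 (double knockout). Its interaction was -0.06 with a 95% interval of -0.61 to 0.50. The intervals were -0.59 to 0.51 for Mpeg1, -0.63 to 0.37 for the adipokine Serpina12, -0.96 to 0.88 for the deiodinase Dio1, -1.95 to 0.42 for asparagine synthetase Asns and -0.05 to 0.82 for the imprinted RNA Meg3. For Mmd2 the interaction was -0.70 with an interval of -1.29 to -0.11, which does not include 0, although its adjusted p was 0.487.

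Read the other way, the interaction asks how far the effect of leptin loss depends on SHP. Leptin loss changed 2100 genes with SHP present (16.9%) and 1311 without it (10.6%), in comparisons that share no array. The same direction was called in both for 841 genes, 40% of the first list and 64.1% of the second, and opposite directions for 12. As examples, Reg3b and Col4a1 were higher without leptin by 2.95 and 1.52 with SHP present and by 0.11 and 0.01 in its absence. Reg3b is among the pancreas genes above, and its other probe set gave an interaction of the opposite sign (0.22). Gbp2 was higher by 0.32 with SHP and by 5.42 in its absence.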

How the data were processed

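Liver RNA of 4 genotypes was measured on 8 Affymetrix arrays. The deposited values are log2 expression values per probe set, made by the authors in R 2.15.0 (per the submitters' processing notes). No source used here gives the background correction, the summarisation or the log base, and base 2 was inferred from the range of 2.20 to 14.19. They were used as deposited. Of 22626 probe sets without the 64 controls, 20380 named 1 gene, 691 several and 1555 none in the array annotation; each gene took its probe set of highest mean. Symbols were checked against RefSeq (GRCm38.p6; 20351 probe sets matched, 0 symbols changed), and RefSeq promoter windows were searched. A model with 1 mean per genotype was fitted with limma 3.58.1 (R 4.3.3, the data.table package, version 1.17.8), with 4 residual and 7.16 prior degrees of freedom, two-sided, with Benjamini-Hochberg adjustment over all genes; genes with an adjusted p under 0.05 count as called. The code was tested on simulated data. Named were the 15 largest called interactions each way whose highest genotype mean reached 5.50 and whose symbol was no clone name, up to 4 called members per list, and 2 members of lists without one. Other genes in the text, among them BC023105, Dmbt1, Cnmd, Parp14, Parp9, Malat1, Sdc4, Tapbpl, Irf8, Ifit3, Zbp1, Plekhb2, Anxa5, Col4a2, Pnliprp1, Cyp7a1, Elovl6 and Fasn and further uncalled list members, were chosen after their values were seen. The interaction and all 41 lists were chosen with earlier results of these data known. Same-numbered replicates did not deviate together throughout (r from -0.100 to 0.209 between genotypes), so replicate numbers were no block. Alternatives covered normalisation, dim genes, variance models, probe sets, a 2-fold minimum, the block, the linear scale and each array left out.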

Additional observations from a re-analysis of the deposited data

Results flagged for a closer look

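The interaction tests directly whether losing SHP acts differently with and without leptin, and the following named genes passed it. Above the additive expectation were Gbp2b (5.15), Gbp2 (5.10), Ctse (4.69), Sult3a1 (4.51), Gbp6 (4.35), Igtp (3.84), Gbp7 (3.48), Gbp3 (3.47), Ifi47 (3.44), Irgm2 (2.77), Irgm1 (2.66), Cd274 (2.58), Gdpd3 (2.33), Rtp4 (2.32) and Iigp1 (2.32). From the gene lists came Psmb9 (2.25), Tap1 (2.20), Ifit1 (2.05), Irf1 (1.87), Psmb8 (1.73), Psmb10 (1.68), Irs2 (1.66), Usp18 (1.61), Ighm (1.32), Cyp2c37 (1.27) and Got1 (1.19). Below it were Cidea (-4.17), Adi1 (-3.36), Clps (-3.13), Prss2 (-2.90), Zg16 (-2.86), Reg3b (-2.84), Mme (-1.93), Wfdc2 (-1.91), Pltp (-1.87), Cbr3 (-1.78), Serpinb1a (-1.76), Cyp2b10 (-1.60), Ces1g (-1.59), Col4a1 (-1.51), Tmem98 (-1.45) and Cyp2f2 (-1.36). Ighm, the immunoglobulin heavy chain, was low in SHP-/- livers alone, at 6.01 and 6.53 against 7.34 to 7.58 elsewhere, and lost its call when any 1 of 7 arrays was left out. Ighm has 11 probe sets, and those not used gave interactions of the same sign, from 0.08 to 0.91, none of them called. Groups of 2 arrays are too small for a test of single outlying samples.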

How the results depend on the processing

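The 68 called genes became 69 after quantile normalisation, 63 with equal array medians, 62 without dim genes, 93 with a variance trend, 76 with robust eBayes, 69 with the mean of probe sets and 64 without x_at and s_at probe sets. With the replicate block the count was 77, with 65 of the 68 among them, and every named call was kept; the numbers are not shown to pair the samples. Every probe set by itself gave 120 calls, a minimum change of 2-fold 22, and a floor at the 40th percentile of values (4.82) gave 25, of which 13 were among the 68. The floor left 3402 genes with no spread within any genotype, which lowered the prior degrees of freedom to 0.38; 31 of 42 named calls were lost, and 7 GTPases were called instead of 10. The count was 39 without OB-/- replicate 1 and SHP-/- replicate 1 together, and 32 to 113 with each array left out in turn. Zg16 reversed to 0.22 without x_at and s_at probe sets. On the linear scale 0 of the 68 changed sign. The median interaction of all genes lay between 0.00 and 0.06 under these settings. The number of arrays, 2 per genotype, limits the precision.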
